A study of Mus musculus with 21 samples.

Results

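M27H4 is a mouse cell line from a mammary tumour of the C3(1)/SV40 TAg model, in which the SV40 T antigen is expressed under the C3(1) promoter. The comparison described here set M27H4 cells overexpressing Esrp2-as, a long noncoding RNA, against M27H4 cells with an empty vector. It took the 8 of 21 samples whose labels name M27H4, and these formed 3 overexpression and 3 control biological replicates, since replicate 2 of each group was deposited as a pair of technical replicates that were summed. Both groups are of this origin, and their growth conditions are described alike, in medium with serum. The vector, its promoter, the number of clones and the time of harvest are not given in the sources used here. The other samples of the series were an M6 tumour line with Esrp2-as knockdown and its control, and 3T3-L1 preadipocytes with Esrp2-as overexpression and their control. RNA was depleted of ribosomal RNA, so long noncoding transcripts without a poly(A) tail were also captured. Totals ran from 34892461 to 237444942 counts per M27H4 replicate, with replicate 1 of both groups the shallowest, and 15014 to 19446 genes held at least 10 counts.

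Esrp2 encodes an epithelial splicing regulator, an RNA-binding protein. It favours splice forms of the epithelial type in transcripts of genes such as Cd44, Fgfr2 and Ctnnd1. Its relative Esrp1 does the same, and both are lost when epithelial cells turn mesenchymal. Antisense RNAs can act on the gene they overlap, or elsewhere, or not at all. Interferon-stimulated genes, which recur below, encode antiviral proteins that are switched on by a transcription factor complex that contains Stat2 and Irf9 when a cell senses interferon, and several of them bind foreign or double-stranded RNA.

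Nearly all Esrp2-as counts were assigned to 1 spliced transcript, 99.2 to 99.7% under overexpression and 91.2 to 100% with empty vector. Reads across its splice junction were not counted. The gene (1810019D21Rik, ENSMUSG00000086390) lies on the plus strand of chromosome 8 from 106135400 to 106138525 in GRCm38, and the transcript (ENSMUST00000145343) has 2 exons, from 106137065 to 106137350 and from 106137828 to 106138525, that join to 984 bases. Its splice junction is shown because it marks the transcript to which these counts were assigned. The last 60 bases of the first exon are in lower case and the first 60 of the second in capitals, read 5′ to 3′ from the GRCm38 reference.
Esrp2-as splice junction: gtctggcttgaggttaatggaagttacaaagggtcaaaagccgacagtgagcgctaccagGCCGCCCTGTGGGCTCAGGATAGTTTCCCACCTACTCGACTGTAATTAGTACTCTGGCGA

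The line carried markers of mesenchymal cells and some of the markers of epithelial cells. In the controls, per transcript length, the epithelial genes led with Krt18 at 51.1 TPM and Cdh1 at 36.5 TPM. Mesenchymal genes stood higher, with Vim at 287 TPM, Sparc at 265 TPM and Axl at 215 TPM, and the fibroblast gene Pdgfra stood at 107 TPM. Among luminal mammary genes Areg held 56.9 TPM and Gata3 33.9 TPM. A mean of 1 CPM (read counts scaled to the library total) was reached by 7 of 18 luminal and 20 of 33 epithelial genes. The 20 included genes not read below as expressed by M27H4. The luminal genes Pgr (0.0914 TPM), Prlr (0.00798 TPM), Foxa1 (0.00589 TPM) and Elf5 (0.001 TPM) were close to absent in the controls. The epithelial genes Elf3 (0.217 TPM), Grhl2 (0.115 TPM) and Ovol1 (0.0198 TPM) were low there as well. Markers of other cell types were mixed. The immune genes Cd3e and Cd8a, the endothelial genes Cdh5 and Emcn and the adipocyte gene Adipoq were at 0 TPM, and Ptprc was at 0.00037 TPM. The receptor genes Kdr (3.69 TPM), Flt1 (2.79 TPM) and Eng (1.17 TPM) of the endothelial list and S100a8 (12.0 TPM) of the immune list were detected.

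Replicate 1 stood apart from replicates 2 and 3 in both groups, and this has to be known before the groups are compared. Of 12709 genes with a mean level of at least 1 CPM (read counts scaled to the library total), 75 were more than 2-fold higher in both replicate 1 libraries than in all 4 others, and 105 were more than 2-fold lower. By the same measure only 2 genes were higher in all overexpression than in all control libraries and 1 was lower. The examples given for replicate 1 were picked after their values were seen. The first set held acute-phase genes beside others, such as the small nucleolar RNA Snora73a and the immediate early genes Fosb and Egr1. Saa3, a serum amyloid, held 881 CPM in control 1 and 110 CPM in overexpression 1, against 0.278 to 0.783 CPM in the other 4 libraries. Lcn2, which binds bacterial siderophores, held 1510 and 266 CPM there, against 16.2 to 19 CPM. Nos2 (24.5 and 2.25 CPM) and the complement gene C3 (342 and 72.2 CPM) had the same order. All 4 genes were high in replicate 1 and higher in its control than in its overexpression library. Saa3, Lcn2 and Nos2 had log2 ratios of -3.0, -2.50 and -3.18 in pair 1, and between 0.03 and 0.18 in the other pairs.

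The genes that were lower in replicate 1 included markers of the other lines. In all, 32 genes were under 0.2 CPM in both replicate 1 libraries and at 1 CPM or more in all 4 others. All 32 stood above 50 CPM in M6 or 3T3-L1 control cells, and their level in M27H4 replicates 2 and 3 was 0.511 to 1.86% of that level, with a median of 1.03%. Epcam, an epithelial adhesion gene, held 0.0488 and 0.139 CPM in replicate 1, 4.73 to 8.85 CPM in the others, and 731 CPM in M6. The fibroblast cadherin Cdh11 held 0.0163 and 0.167 CPM, then 6.53 to 7.54 CPM, and 669 CPM in 3T3-L1. The number codes in the deposited column names, which the labels do not define and which are read here as sequencing lanes, divide the libraries in the same way. Replicate 1 of both groups came from a code with no other library, while each code of replicates 2 and 3 also held libraries of the other lines. Esrp1 held 0 CPM in both replicate 1 libraries, 0.948 to 1.03 CPM in the others and 114 CPM in M6. Epcam, Esrp1 and the other low markers of M6 or 3T3-L1 were therefore not read as expressed by M27H4. Whether reads passed between libraries of a lane, or cells between cultures, was not tested. The overexpression and control library of a pair held such genes at like levels. What part of the level of other genes came from the other lines was not tested.

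**Figure D1:**
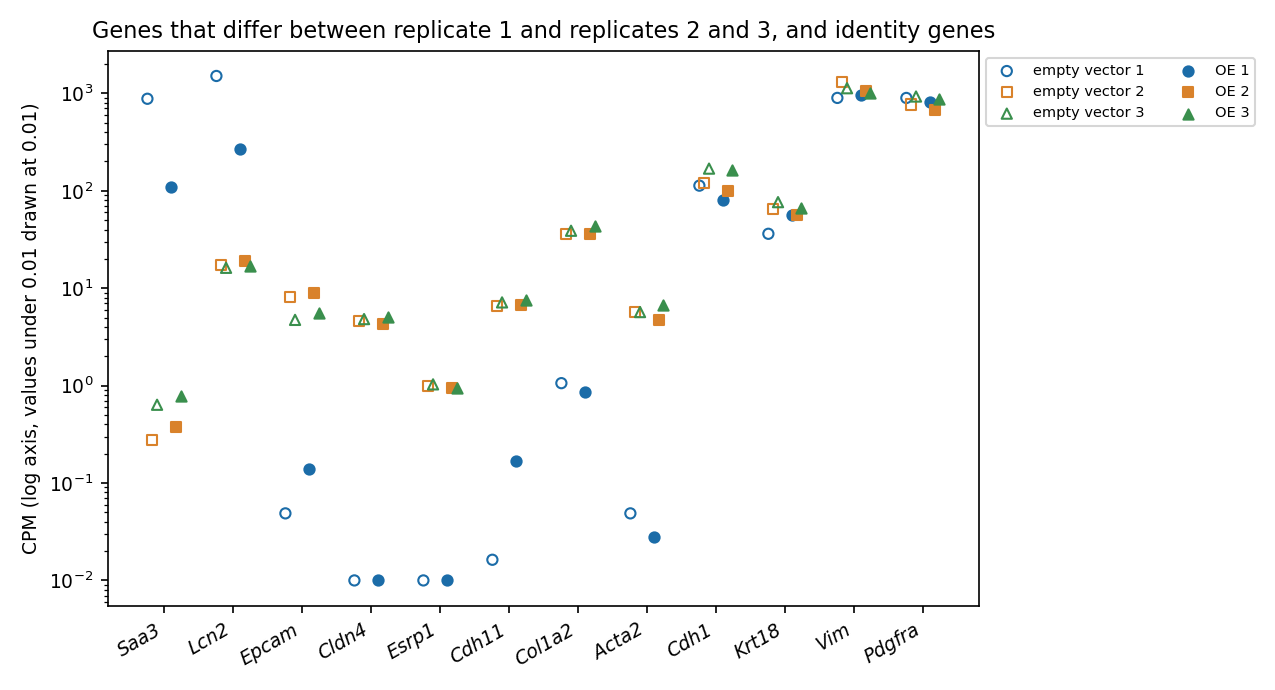
Level of 12 genes (CPM, log axis) in each M27H4 library, open symbols for empty vector and filled symbols for Esrp2-as overexpression (OE), by replicate. Saa3 and Lcn2 were high in both replicate 1 libraries, Epcam, Cldn4, Esrp1, Cdh11, Col1a2 and Acta2 were near 0 there, and Cdh1, Krt18, Vim and Pdgfra showed no such gap.

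The first question was whether Esrp2-as was raised as labelled and whether Esrp2 moved with it. With empty vector, Esrp2-as was measured at 0.731, 1.25 and 0.889 CPM, and at 61.2, 65.9 and 15.9 CPM under overexpression. All overexpression libraries stood far above all controls, and replicate 3 was the lowest of them. The technical replicates of replicate 2 gave 63.5 and 67.9 CPM under overexpression and 1.06 and 1.41 CPM in control. The log2 fold change was 5.40 (SE 0.47), 42.2-fold, with an interval at 95% from 4.30 to 6.50. With pairs as blocks, edgeR's quasi-likelihood test with Benjamini-Hochberg adjustment gave an adjusted p of 0.0794. Without the block it was 5.62 with an adjusted p of 0.00152, so the edgeR call over all lines depended on the pairing term. That term leaves 4 residual degrees of freedom in place of 8. With the block kept, DESeq2 and limma voom called Esrp2-as. The 2-exon transcript held 99.2 to 99.7% of Esrp2-as counts under overexpression and 91.2 to 100% in control. Both libraries of a pair carry the same code. The codes of replicates 2 and 3 also held 3T3-L1 overexpression libraries, and in that line Esrp2-as rose by log2 7.09. How much of the M27H4 control level came from overexpression libraries of the same code was not tested.

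Esrp2 itself (ENSMUSG00000084128, minus strand of chromosome 8, 106130319 to 106136974) overlaps the Esrp2-as gene but not the exons of the 2-exon transcript in this annotation. Its level was 11.3, 15.0 and 13.7 CPM with empty vector, against 9.31, 12.7 and 15.9 CPM under overexpression. The groups overlapped, with overexpression the lower in pairs 1 and 2 and the higher in pair 3. The log2 difference was -0.10 (SE 0.13), with an interval at 95% from -0.39 to 0.19 and an edgeR adjusted p of 0.992. Its main transcript, 201, held 89.0 to 93.4% of Esrp2 counts in every replicate. Of 19 tested genes near Esrp2 on chromosome 8, none was called, and 2 had an unadjusted p under 0.05, both lower, where 2.04% of all genes did so on that side. A count of 2 is too small to read against that share. Dus2, a tRNA dihydrouridine synthase, held 3.49, 3.53 and 3.51 CPM in control and 2.31, 2.94 and 2.82 CPM under overexpression, and Cdh1, E-cadherin, stood at a log2 difference of -0.28 (SE 0.12).

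**Figure D2:**
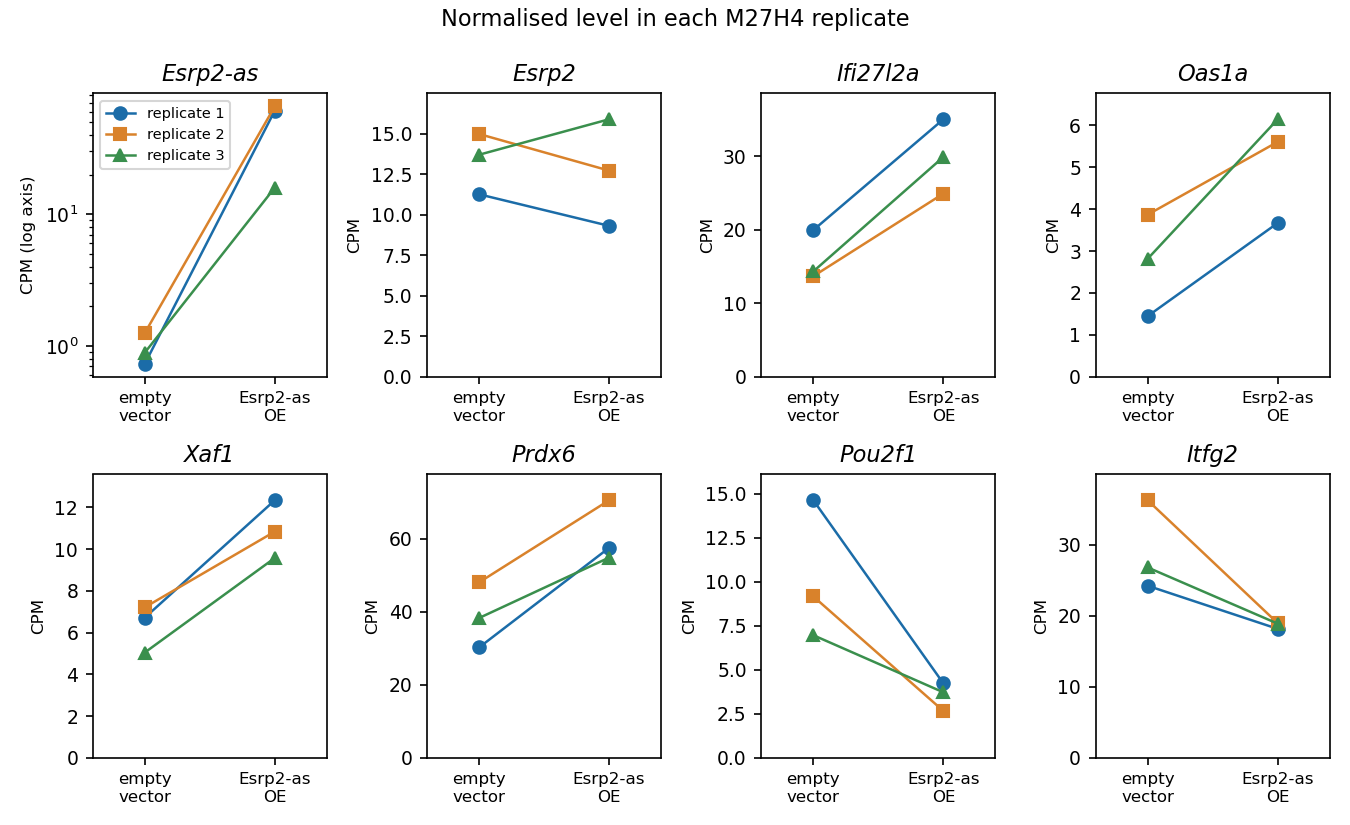
Level (CPM) of 8 genes in the empty vector and the Esrp2-as overexpression (OE) library of each replicate, lines joining the pairs, with a log axis for Esrp2-as only. With technical replicates summed, Esrp2-as, Ifi27l2a, Xaf1 and Prdx6 were higher in all overexpression libraries than in all controls. Pou2f1 and Itfg2 were lower, and Esrp2 overlapped.

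Across all genes few differences were larger than the spread. Of 21237 genes tested, 1 (0.00471%) had an edgeR adjusted p under 0.05. Before adjustment, p lay below 0.05 for 428 genes with higher levels (2.02%) and 433 with lower levels (2.04%), fewer in all than the 1062 that uniform p values would give. The 3 overexpression libraries were all above the 3 controls in 570 genes (2.68%) and all below in 514 (2.42%). Among the 12709 genes with at least 1 CPM the balance was uneven, with 137 separate higher (1.08%) and 344 separate lower (2.71%), and 686 genes higher against 1903 lower in all 3 pairs. These differences were small, and the span from the 5th to the 95th percentile of these genes was log2 -0.32 to 0.27. DESeq2 with the same design called 19 genes, 12 higher and 7 lower, and limma voom called Esrp2-as alone.

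The called gene rested on 1 library. Gm47287, annotated as a microRNA within the signal recognition particle RNA gene Rn7s1 on chromosome 12 (69159437 to 69159506), held 11950 CPM in overexpression replicate 3 and 0 in the other 5 libraries. Rn7s1 held 5092 CPM in that library and 0 to 17.4 CPM in the others. The overlapping Gm47295 held 2004 CPM in it and 2688 to 4679 CPM elsewhere. Without replicate 3 the log2 difference of Gm47287 was 0.00, and no group pattern is read from it.

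Among the 12709 genes with at least 1 CPM, 3 differed more than 2-fold between all libraries of the groups. Esrp2-as was the first. Gm20427, a noncoding gene on chromosome 17, held 4.36, 7.91 and 2.06 CPM in control and 42.8, 19.8 and 23.2 CPM under overexpression, a log2 difference of 2.71 (SE 0.76, adjusted p = 0.989). The technical replicates gave 7.91 and 30.3 CPM in overexpression replicate 2 and 14.6 and 2.58 CPM in control replicate 2, so runs of the same library spread widely. ENSMUSG00000107554, which has no name in the annotation used, held 5.77, 4.46 and 3.87 CPM in control and 0 in all overexpression libraries. It was not called with the block (adjusted p = 0.989) but was called without it (adjusted p = 0.00666), and its 851 counts in control replicate 2 all came from 1 of the technical replicates. Such gaps between runs of replicate 2 were counted over all 48440 gene identifiers. In overexpression 16 genes, and in control 18, stood at 0 counts in 1 run and at 100 or more in the other. Whether they came from read assignment between overlapping features was not tested.

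**Figure D3:**
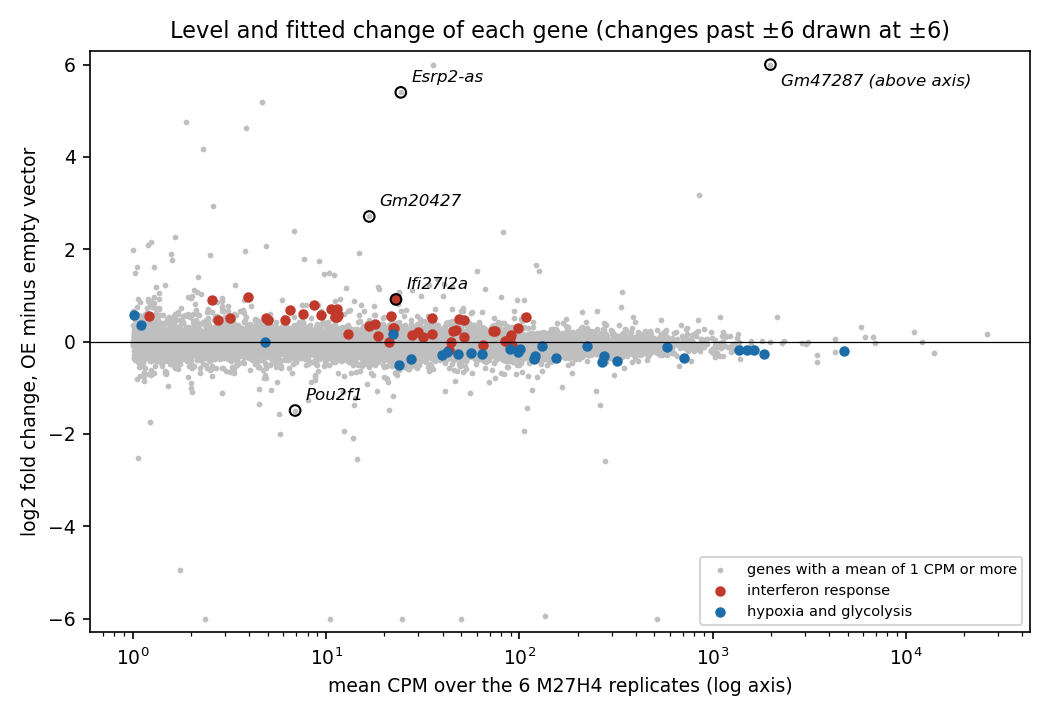
Mean level over the 6 M27H4 replicates (CPM, log axis) against the fitted log2 fold change for genes with at least 1 CPM, with interferon-stimulated and hypoxia and glycolysis genes coloured. 7 genes past 6 in either direction are drawn at the edge. Esrp2-as stands apart at 5.40, interferon genes lie mostly above 0 and glycolysis genes mostly below.

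Interferon-stimulated genes made up most of the genes that ranked first on the higher side. By p value among protein-coding genes that were higher in all pairs, the first 10 were Ifi27l2a, Oas1a, Xaf1, Prdx6, Zbp1, Vps29, Ifi27, Oas1g, Usp18 and Zfp931. Of these, only Prdx6, a peroxidase of lipids, Vps29, a retromer subunit, and Zfp931, a zinc finger gene, are not known interferon targets. For Prdx6 the technical replicates of control replicate 2 gave 59.9 and 38.4 CPM, against 57.5, 70.5 and 54.8 CPM in the overexpression replicates. None of the 10 was called by edgeR with the block, and DESeq2 called Ifi27l2a, Oas1a, Xaf1, Prdx6, Zbp1 and Vps29. That the list leans higher in this line was known when it was chosen, so its count is a description.

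Ifi27l2a, a small membrane protein induced by interferon, had the smallest p after Gm47287 and Esrp2-as. It stood at 19.9, 13.7 and 14.3 CPM with empty vector, and at 35.0, 24.9 and 29.9 CPM under overexpression. Every overexpression library was above every control, and the pairs agreed closely, with log2 ratios of 0.80, 0.84 and 1.04. The technical replicates of replicate 2 gave 14.1 and 13.3 CPM in control against 23.4 and 26.3 CPM. The fitted log2 difference was 0.91 (SE 0.12, 1.88-fold, interval 0.65 to 1.18), with an edgeR adjusted p of 0.164, and 6e-09 by DESeq2. In 3T3-L1 the same overexpression gave 0.04.

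The sensors of foreign nucleic acid on the list were not alike. Oas1a makes the messenger molecule that activates RNase L on double-stranded RNA. It held 1.45, 3.87 and 2.81 CPM in control and 3.67, 5.61 and 6.14 CPM under overexpression, which overlap, with replicate 1 low in both groups. Its log2 difference was 0.97 (SE 0.18, adjusted p = 0.904). Its close copy Oas1g stood at 0.92 (SE 0.22) and Oas1b at 0.51 (SE 0.15), and reads shared between the Oas1 copies make each value uncertain. Zbp1, a sensor of left-handed double-stranded nucleic acid, held 9.46, 4.73 and 4.22 CPM in control and 12.8, 6.74 and 7.51 CPM under overexpression. Overexpression was the higher in all 3 pairs of Zbp1 while the groups overlapped, with both replicate 1 libraries high. The RNA sensors Ifih1, Ddx58, Dhx58 and Eif2ak2 stood at 0.25, 0.24, 0.20 and 0.13, each with an unadjusted edgeR p above 0.05. Genes of this list were also high in 3T3-L1 controls, with Oas1a at 183 CPM, Xaf1 at 98.9 CPM and Ifi27l2a at 85.5 CPM. Replicates 2 and 3 of both M27H4 groups shared codes with 3T3-L1 libraries, and the part of such reads in their levels was not tested. In replicate 1, whose code held no other line, Oas1a stood at 1.45 CPM in control and 3.67 CPM under overexpression.

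Effector and feedback genes varied. Xaf1, which promotes cell death after interferon, held 6.71, 7.21 and 5.04 CPM in control and 12.3, 10.8 and 9.58 CPM under overexpression, without overlap. Usp18 removes Isg15 from proteins and dampens the receptor. It stood at a log2 difference of 0.70 (SE 0.17). Mx2, an antiviral GTPase, stood at 0.91 (SE 0.33) and Gbp3 at 0.56 (SE 0.16), each with all overexpression libraries above all controls. Isg15 held 19.9, 10.9 and 16.7 CPM against 19.4, 22.1 and 18.7 CPM, so its groups overlapped and its ratio in pair 1 was log2 -0.03. Trim25, a ubiquitin ligase that acts on an RNA sensor, was the lowest of the list at -0.19 (SE 0.19).

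The regulators of the pathway were less uniform. Irf7, a factor that amplifies the response, held 8.35, 10.4 and 5.83 CPM in control and 12.1, 12.7 and 14.2 CPM under overexpression, without overlap (log2 0.70, SE 0.27). Irf9 stood at 0.48 (SE 0.16), while Stat2 stood at 0.10 (SE 0.14). Transcripts of interferon beta itself were close to absent. Ifnb1 held 0, 0.115 and 0 CPM in control and 0.167, 0.168 and 0.115 CPM under overexpression, too few to compare. The receptor subunit Ifnar1 held 72.3 to 82.4 CPM in control and 65.5 to 74.2 CPM under overexpression.

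Over the whole list, 45 of 50 tested members had a fitted difference above 0, against 9588 of 21237 of all genes tested. Before adjustment 17 members had a p below 0.05, all of them higher, where 2.02% of all genes did so. Of the 50, 10 were higher without overlap, where 2.68% of all genes were, and 24 were higher in all 3 pairs, where 2021 of all genes were. None had an adjusted p under 0.05. The median log2 difference was 0.37, beside -0.02 over all genes tested. By pair the median was 0.59, 0.06 and 0.27, so pair 2, the deepest, showed little difference in most members. Without replicate 1, 45 members were above 0 and 12 had an unadjusted p under 0.05. Without replicate 2 these counts were 47 and 22, and without replicate 3 they were 44 and 10. In 3T3-L1 the median was -0.05 and 14 of the 50 were higher. The difference between the lines was called for none of the 50 members, and over all 21237 genes for none (0%), with 771 (3.63%) at an unadjusted p under 0.05. DESeq2 called 12 genes in that contrast, Ifi27l2a among them. MHC class I genes, which interferon also induces, had 11 of 22 members higher and a median of 0.00.

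**Figure D4:**
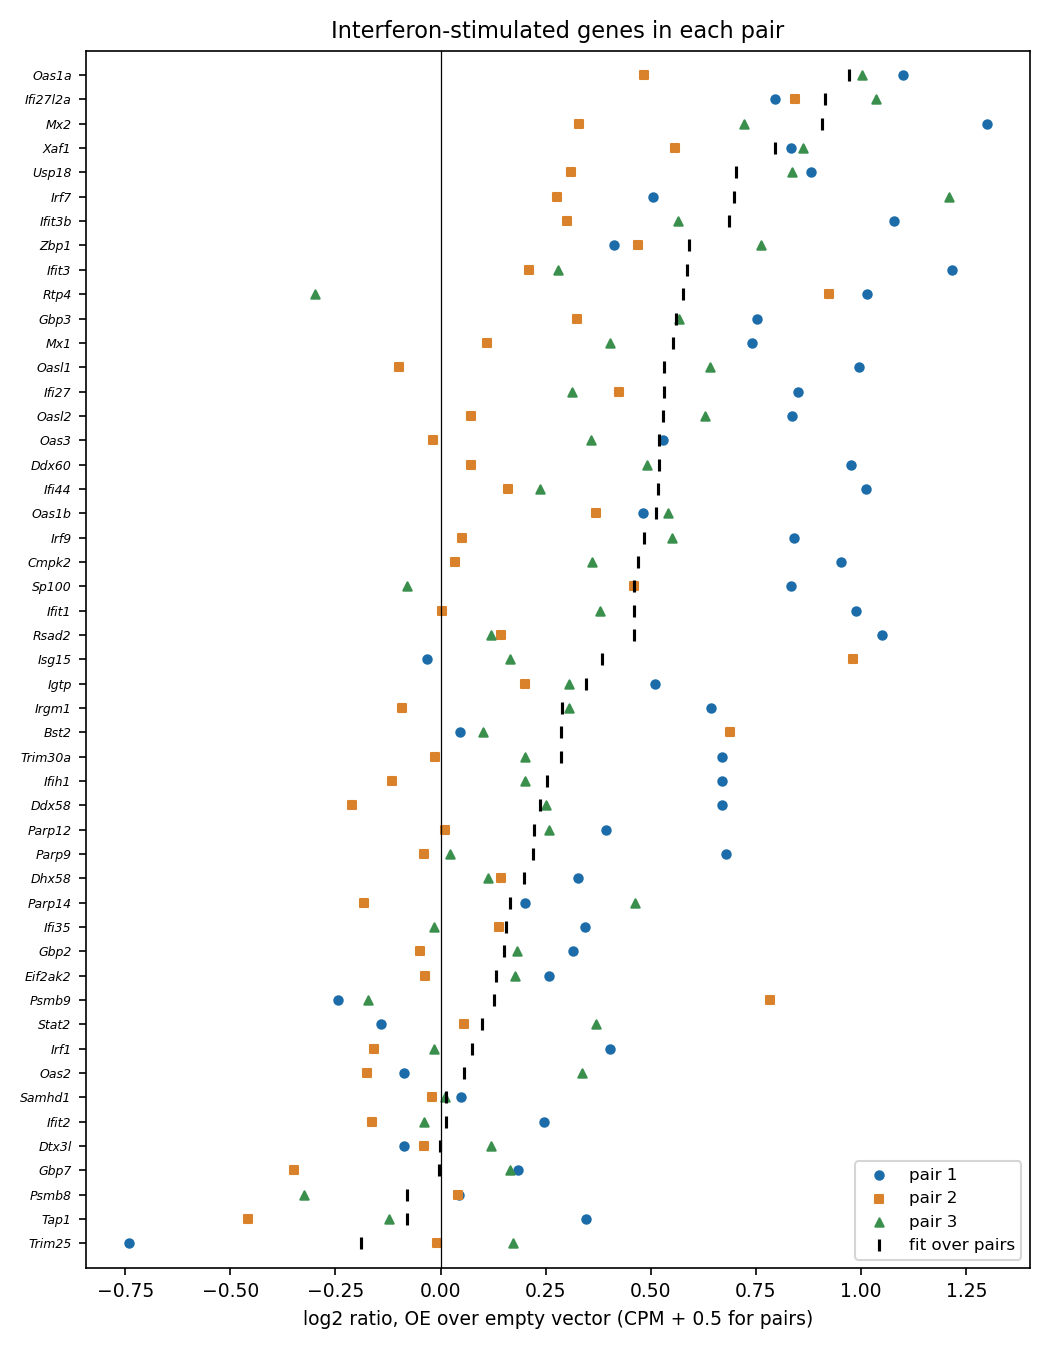
Log2 ratio of overexpression (OE) over empty vector in each pair, on CPM with 0.5 added, for the interferon-stimulated genes on the vertical axis, with the fitted difference as a bar. Most pair 1 and pair 3 points lie above 0, and most pair 2 points lie closer to 0.

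A known motif was counted in the promoters of the list. The interferon response element is bound by that complex and by Irf factors, and its core was searched as GAAA, 2 bases of any kind and GAAA again, on both strands and with overlapping matches, in the RefSeq GRCm38.p6 windows from 250 bases before to 50 after each start. Of 37 list members with a window, 19 (51.4%) held it, against 1079 of 27025 symbols (3.99%) in the whole table. The other list members, Ifi27l2a among them, had no window in the table. The list was drawn up from known interferon targets, so this describes the list and not the response in these cells. A match is not a bound site. Stretches around the matches are shown for 4 members, with the run of matches in capitals, read 5′ to 3′ on the gene's strand.
Oas1a, chr5:120907526-120907570, minus strand: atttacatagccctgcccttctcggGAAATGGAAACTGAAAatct
Oas1g, chr5:120887614-120887656, minus strand: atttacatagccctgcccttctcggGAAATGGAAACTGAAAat
Isg15, chr4:156200850-156200921, minus strand: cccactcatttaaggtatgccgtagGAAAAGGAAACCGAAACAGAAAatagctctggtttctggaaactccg
Bst2, chr8:71537562-71537627, minus strand: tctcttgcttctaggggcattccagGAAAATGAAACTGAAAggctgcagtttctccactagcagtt
The Oas1a and Oas1g windows are identical over the 43 bases they share, and the log2 differences of these genes were 0.97 and 0.92. Isg15 and Bst2 hold the motif as well and stood at 0.39 (SE 0.20) and 0.29 (SE 0.15). No match was found in the 250 bases before the start of Xaf1 and Irf7, whose groups did not overlap. The stretches shown and this statement cover only those bases, while the counts above cover the whole windows.

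On the lower side the first 10 genes by p included Pou2f1, Elmo2, Itfg2, Serpina3n, Agpat3, Fam102b, Golim4, Gpi1 and Repin1. None of the 10 was called by edgeR with the block. Of those named, DESeq2 called Pou2f1, Elmo2, Agpat3 and Fam102b. Pou2f1, which encodes the octamer-binding factor Oct1, held 14.6, 9.17 and 6.97 CPM in control and 4.23, 2.66 and 3.72 CPM under overexpression. All overexpression libraries were below all controls, with a log2 difference of -1.49 (SE 0.22, adjusted p = 0.452). Its control replicate 2 gave 12.6 and 6.42 CPM in the technical replicates, so runs of 1 library also differed.

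Other genes of the 10 were more abundant. Fam102b, of unsettled function, held 152, 153 and 165 CPM in control and 75.3, 89.9 and 65.6 CPM under overexpression, with a log2 difference of -1.04 (SE 0.22, adjusted p = 0.989). Golim4, a Golgi membrane protein, held 150, 140 and 171 CPM against 70.9, 114 and 90.8 CPM. The technical replicates of overexpression replicate 2 spread from 54.7 to 121 CPM for Fam102b and from 86.8 to 138 CPM for Golim4. Agpat3, which acylates lysophosphatidic acid, had the smallest SE of the 10. It held 127, 129 and 127 CPM in control and 89.1, 98.3 and 99.1 CPM under overexpression, a log2 difference of -0.42 (SE 0.09). Elmo2, an adaptor of Rac activation, held 60.7, 63.3 and 61.1 CPM against 39.3, 44.5 and 44.9 CPM. Both genes were lower in every overexpression library than in any control, with technical replicates summed. The technical replicates of replicate 2 gave 111 and 144 CPM for Agpat3 in control and 108 and 89.3 CPM under overexpression. For Elmo2 they gave 62.1 and 64.2 CPM in control and 53.7 and 36.4 CPM under overexpression.

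Serpina3n, a protease inhibitor of the acute phase, rested on replicate 1. It held 20.4, 0.692 and 0.612 CPM in control and 8.67, 0.302 and 0.388 CPM under overexpression. Overexpression was the lower in each pair, while both replicate 1 libraries were far above the rest. The group difference cannot be read without the pairs.

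Glycolytic enzymes and hypoxia-inducible genes were mostly lower. Of 30 tested members 26 were lower and 4 higher, with a median log2 difference of -0.22 and medians by pair of -0.29, -0.06 and -0.22. Lower levels were also the more common among all genes with at least 1 CPM, 8224 of 12709. Before adjustment 7 members had a p below 0.05, where 2.04% of all genes did so on the lower side, and all 7 were lower (Gpi1, Pfkl, Egln1, Hk1, Pdk1, Pfkfb3 and Ndrg1), and none was called. Gpi1, the isomerase of glucose 6-phosphate, held 442, 318 and 334 CPM in control and 335, 242 and 239 CPM under overexpression. Its ratio was alike in the pairs, at log2 -0.40, -0.39 and -0.48, while the groups overlapped through the high replicate 1. Pfkl, a phosphofructokinase subunit, stood at -0.32 (SE 0.09) and Hk1, a hexokinase, at -0.35 (SE 0.12). In 3T3-L1 13 of the 30 were higher, with a median of -0.01.

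Other gene groups differed less, or differed between the pairs. Cholesterol and fatty acid synthesis genes had 30 of 33 members lower with a median of -0.12, extracellular matrix genes 24 of 33 with -0.12, and basal and myoepithelial genes 14 of 16 with -0.16. Beside the uneven balance of all expressed genes, whose median was -0.05, these shifts were small. NF-kB targets and cytokines had 25 of 32 members lower and a median of -0.14, which came from pair 1 (-0.31) and not from pairs 2 and 3 (-0.02 and 0.01). Sod2, a mitochondrial superoxide dismutase in that list, held 210, 78.1 and 81.9 CPM in control and 93.3, 75.0 and 71.7 CPM under overexpression. It followed the acute-phase genes in being high in control 1.

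Histone genes of the replication-dependent clusters were lower in 58 of 65, with a median of -0.14, but the pairs gave -0.24, -0.42 and 0.21. Ribosomal protein genes were higher in 63 of 76, with a median of 0.10 and pair medians of 0.05, 0.39 and -0.11. In both groups of genes pair 3 ran against pair 2. Nuclear-retained and host-gene noncoding RNAs were higher in 15 of 18, with a median of 0.31 and pair medians of 0.04, 0.52 and 0.29. Of the 18, 1 had an unadjusted edgeR p under 0.05, on the higher side. That is too few to read against the 2.02% of all genes on that side. Neat1, the scaffold of paraspeckles, held 31.9, 25.3 and 8.26 CPM in control and 42.7, 67.4 and 28.9 CPM under overexpression (log2 1.22, SE 0.42, adjusted p = 0.989). Its technical replicates in overexpression replicate 2 gave 21.2 and 108 CPM, a wider gap than that between the groups, and Malat1 stood at 479 CPM in overexpression 3 against 30.3 to 93.4 CPM in the other libraries.

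The remaining lists held at most 3 members each with an unadjusted edgeR p under 0.05, where 4.05% of all genes did so. The 3 were mesenchymal genes, of 30 tested, with 1 higher and 2 lower. Counts this small are not read against that share. Epithelial identity genes had 19 of 33 members higher (median 0.04) and mesenchymal genes 9 of 30 (-0.09). The list counts include genes not read above as expressed by M27H4. Among them were Epcam, Cldn4 and Dsp in the epithelial list, Acta2 in the mesenchymal and basal lists and Esrp1 among the splicing regulators. Luminal mammary genes had 7 of 16 higher (-0.03), TGF-beta targets 7 of 24 (-0.06) and Wnt targets 6 of 16 (-0.09). Genes of replication had 16 of 40 higher (-0.04), mitotic genes 10 of 32 (-0.03) and p53 targets 9 of 30 (-0.07). Splicing regulators had 8 of 21 higher (-0.02), immediate early genes 13 of 28 (-0.03), and stress genes of the unfolded protein response 11 of 34 (-0.06) and of heat shock and oxidation 8 of 23 (-0.05). Fibroblast genes had 9 of 18 higher (-0.02) and adipocyte genes 3 of 12 (-0.15). Smad7, an inhibitor that TGF-beta induces, held 62.4, 66.4 and 46.3 CPM in control and 51.5, 51.1 and 35.2 CPM under overexpression (log2 -0.35, SE 0.10), lower in each pair. Markers of immune cells were higher in 9 of 9 tested (median 0.39), but only 2 of them reached 1 CPM and the medians by pair were 0.07, 0.00 and 0.02. Endothelial markers were higher in 5 of 9 tested (0.07). Mitochondrially encoded genes were higher in 6 of 9 tested (median 0.14), with medians by pair of -0.68, 0.00 and 1.02. Some estimates were unstable. The gene mt-Nd1 was listed at 185, 111 and 0 CPM in control and at 3.39, 0 and 0 CPM under overexpression. All these cells use that gene. The level of mt-Co1 was 1757, 2210 and 1315 CPM in control and 1959, 2950 and 2675 CPM under overexpression. It was higher in each pair while the groups overlapped (log2 0.53, SE 0.16, edgeR adjusted p = 0.989).

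**Figure D5:**
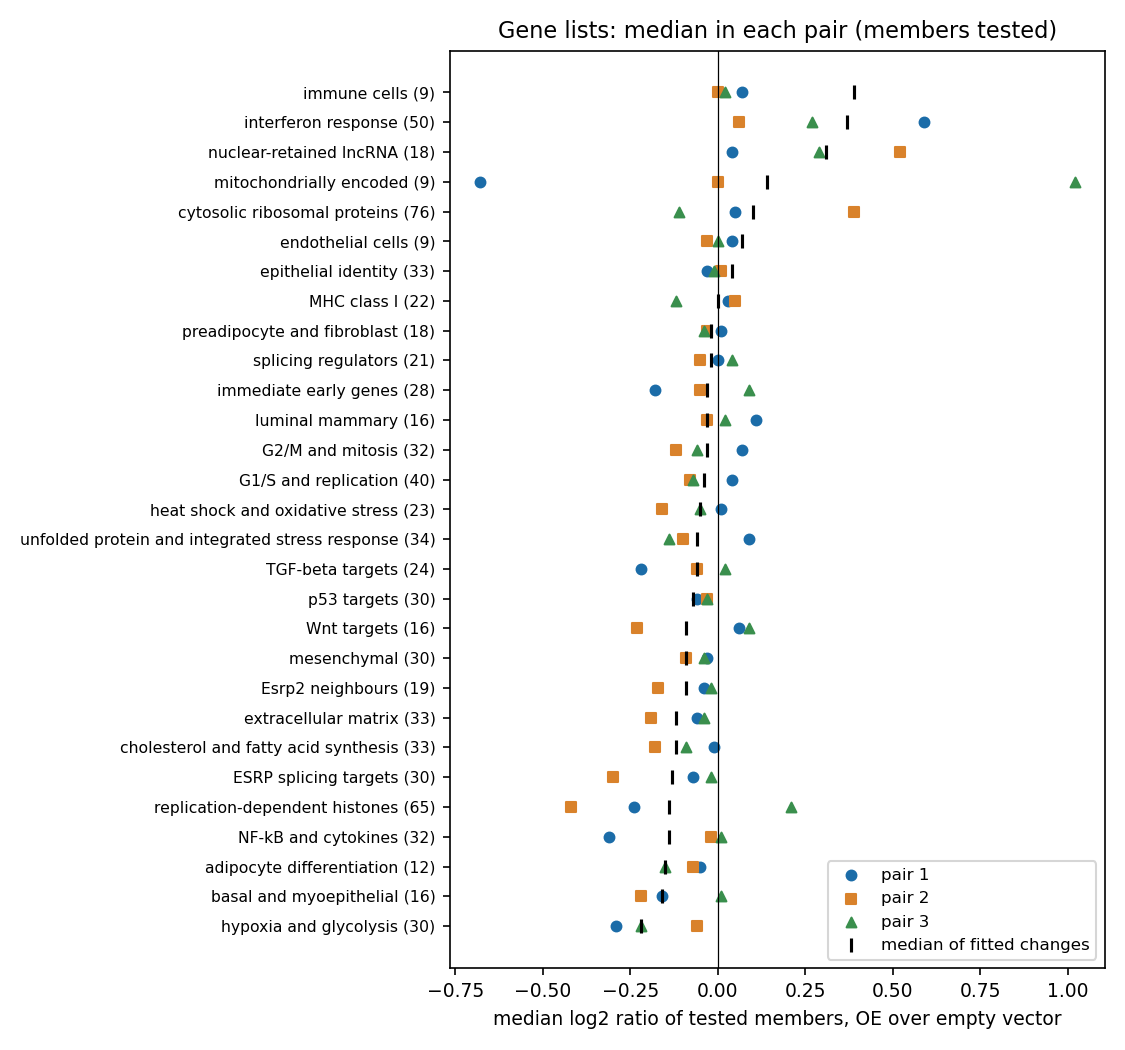
Median log2 ratio of overexpression (OE) over empty vector in each pair for 29 gene lists, with the median of fitted differences as a bar and the number of tested members in brackets. Interferon genes stand above 0 in all pairs (0.59, 0.06 and 0.27), hypoxia and glycolysis genes below in all pairs, and histone and ribosomal protein genes differ in sign between pairs.

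The splicing question was whether transcripts of ESRP targets differed in use. The share of each transcript in its gene's counts was compared over 6511 genes with limma, and none (0%) had an adjusted p under 0.05, while 197 (3.03%) had an unadjusted p under 0.05. Of 25 tested ESRP targets none was called and 2, Fgfr2 and Itga6, had an unadjusted p under 0.05. Transcript ENSMUST00000099673 of Cd44, a hyaluronan receptor, held 86.4, 79.7 and 74.0% of Cd44 counts in control and 88.7, 75.5 and 70.8% under overexpression, which overlap. Transcript 207 of Fgfr2 held 39.6, 45.6 and 24.3% in control and 0, 22.5 and 0% under overexpression. Overexpression replicate 1 held only 141 counts of Fgfr2 in all. The gene levels of the ESRP targets were lower in 26 of 30 (median -0.13), beside 8224 of 12709 genes with at least 1 CPM (median -0.05). Their medians by pair were -0.07, -0.3 and -0.02, so pair 2 gave most of the shift. Only Palm, which was lower, had an unadjusted edgeR p under 0.05, where 2.04% of all genes did so on that side. A count of 1 is too small to read against that share.

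Outside the ESRP targets no share was called either (limma adjusted p = 1 for all named). The smallest p belonged to Pag1, an adaptor of Src family kinases, whose transcript 201 held 32.4, 48.4 and 81.9% in control and 1.12, 15.3 and 35.0% under overexpression. These groups overlapped, and the technical replicates of control replicate 2 gave 80.5 and 26.5%. Transcript 201 of Itfg2, a subunit of a complex that inhibits mTORC1, held 79.0, 84.8 and 89.6% in control and 49.6, 47.4 and 47.0% under overexpression. The overexpression libraries lay within a few percentage points of each other and far below the controls, and the gene's level was also lower (24.2, 36.3 and 26.8 CPM against 18.2, 18.9 and 18.9 CPM). Transcript 201 of Sharpin, a subunit of the linear ubiquitin ligase, held 80.8, 75.4 and 83.8% in control and 43.5, 36.7 and 46.1% under overexpression. The technical replicates of overexpression replicate 2 gave 52.0 and 22.8% for Sharpin and 36.2 and 56.3% for Itfg2, below the controls in each. Transcript 208 of Pou2f1 held 80.2, 50.5 and 51.5% in control and 5.92, 3.48 and 0% under overexpression. In control replicate 2 that transcript held 884 counts in 1 technical replicate and 0 in the other, so StringTie's division between its near-identical forms varied as widely within a library as between the groups. The same held for Sybu, whose transcript 202 held 100% in all controls and 0, 45.3 and 0% under overexpression, since the 45.3% was 100% in 1 run and 0% in the other.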

How the data were processed

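Per the submitters' processing notes, reads were handled with cutadapt, HISAT2, StringTie and edgeR on mm10 (GRCm38); versions, annotation release and counting strand are not given in the sources used here, so values of overlapping and antisense genes are uncertain. The authors deposited expected counts per gene and per transcript as whole numbers, and deposited CPM tables were not used. Columns labelled as technical replicates were summed (0 unmatched count columns used). Names and coordinates are from GENCODE M21, which held 48058 of 48440 gene identifiers.

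Genes were tested with edgeR 4.0.16 in R 4.3.3 (filterByExpr, TMM, robust quasi-likelihood fit) over all 14 replicates of the 3 lines, with 7 pair blocks and 1 effect per line, and p values were adjusted by the method of Benjamini and Hochberg. Levels are CPM of the TMM-scaled total, SEs are the log2 difference over the square root of F, and pair ratios add 0.5 CPM. Same-numbered libraries share a number code in their column names, so replicates were treated as pairs. That code is read here as a lane though the labels do not define it. Deviations of same-numbered libraries from the group means correlated at 0.50, 0.23 and 0.32 over 12709 genes. Libraries with unlike numbers gave -0.4 to 0.21. The highest of these, overexpression 3 with control 2, was close to the 0.23 of pair 2. Shares of transcripts (at least 50 counts per gene and replicate, mean share of at least 5%) were arcsine square root transformed and tested with limma 3.58.1, Bonferroni within genes. Scripts were tested on simulated data. Counting intervals would cover counting error only.

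The comparison, the 29 gene lists and the rule for named genes were chosen with earlier results of these data known. The rule names Esrp2-as, Esrp2, called genes, the 10 smallest p per direction with an ordinary symbol among protein-coding genes at 1 CPM or more with the same direction in all pairs, up to 3 members per list by p, 4 leading identity genes per length and list, and for shares the 4 smallest p and 5 ESRP targets; others named were chosen after their values were seen. Alternatives covered the block, samples, normalization, tool (DESeq2 1.42.0, voom), filters, lanes and left-out replicates. Some items that the rule or the lists name are not reported here.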

Additional observations from a re-analysis of the deposited data

How the results depend on the processing

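The call of Esrp2-as depended on the pairing term, the tool and the lines in the fit. By edgeR over all lines Esrp2-as stood at 5.40 (adjusted p = 0.0794) with the replicate block and was called without it (5.62). DESeq2 (5.44) and limma voom (5.48) called it with the block. Leaving out 1 replicate of both groups or 1 library gave 5.02 to 6.03, with calls without replicate 3 (6.01) and, with no block, without overexpression replicate 1 (5.40), 2 (5.32) or 3 (6.03) or control replicate 1 (5.47), 2 (5.87) or 3 (5.56). Fits of M27H4 alone did not call Esrp2-as with or without the block, and gave adjusted p up to 0.91. The count of 1 called gene became 2 without the block (Esrp2-as and ENSMUSG00000107554), 19 with DESeq2, 0 with a filter of 1 CPM and 1 to 2 without single replicates or libraries. The difference from 3T3-L1 was called for 0 genes, for 1 without the block (ENSMUSG00000107554), 12 with DESeq2 and 1 with voom (Ldlrad3), and transcript shares for 0 and, with only the second run of pair 2, 1 (Sybu). Leaving out libraries one at a time without the block was added after seeing the data.

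Esrp2 ran from -0.27 to 0.11, with -0.25 without replicate 3, and turned to 0.04 without replicate 1 and to 0.11 and 0.02 without overexpression replicate 1 or control replicate 2. Gm47287 was 0.00 without replicate 3 and 23.03 without replicate 2. Without control replicate 1 and with no block, signs turned for Saa3 (6.35), Lcn2 (2.59), Nos2 (3.74), C3 (1.81), Serpina3n (2.21), Pdk1 (0.34), Fn1 (0.09) and Sod2 (0.00), and without overexpression replicate 2 for Pdk1 (0.09). Without replicate 1, Saa3 (0.41), Lcn2 (0.15) and Nos2 (0.71) turned, beside -1.64 and -1.22 without replicate 2 for Saa3 and Lcn2 and -2.25 without replicate 3 for Nos2 (lowest over all alternatives -9.02, -4.83 and -6.49), and without replicate 3 Stat2 (-0.04). Krt18, at 0.07 with the block, was -0.16 without replicate 1 and 0.22 without replicate 2, and with no block -0.08 without overexpression replicate 3 and -0.25 without control replicate 1. The interferon median ran from 0.26 to 0.44 over 19 alternatives, with 42 to 47 of 50 members higher. Over all lists and alternatives, 104 medians moved by more than the spread between pairs and 447 did not. The cause of these changes was not tested.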
